A study of Homo sapiens with 9 samples.

Results

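The γH2AX peaks over CTC1 and its neighbours AURKB, PFAS and TMEM107 on the short arm of chromosome 17 (17p13.1) were examined in a human B-lymphocyte line under replication stress. The members were all peaks that overlapped a window of 250 kb from chr17:8100000 onwards (hg38), which holds the bodies of these 4 of 19970 protein-coding genes. Over 8 peak lists, 182 of 213361 peaks lay in the window. The locus was chosen by the fold enrichment of its peaks, the ratio that the peak caller MACS2 gives of signal in a peak over its background, because CTC1 held the strongest replicated peaks under APH and MMS, so those values are given as a description with no test.

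γH2AX chromatin immunoprecipitation and sequencing (ChIP-seq) had been run on cells of a lymphoblastoid line that the labels call GM09027A, with 2 replicates per condition. The conditions were untreated cells and 24 h of 0.1 μg/mL aphidicolin (APH, an inhibitor of replicative DNA polymerases), 2 mM hydroxyurea (HU, which depletes deoxynucleotides) or 200 μM methyl methanesulfonate (MMS, which alkylates DNA). The doses and the name of the line are those of the labels. The methods of the study state the APH dose in another unit and name the line GM07027. All samples came from the same line, and no genotype differed between them. Peak positions give no expression, so the cell type was not checked against marker genes. No file of the input library was used here. The lists carried no read numbers, so the depth behind each was unknown. The 2 untreated lists held 4779 and 4327 peaks on chromosomes 1 to 22 and X, the APH lists 17658 and 14009, the HU lists 79943 and 69975, and the MMS lists 12204 and 10466. A longer list gives any gene more peaks, so counts below are read against the whole list.

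γH2AX is histone H2AX phosphorylated by the DNA damage kinases, and it spreads over chromatin around breaks and stalled replication forks. CTC1 is the large subunit of the CST complex, which with STN1 and TEN1 binds single-stranded DNA, aids DNA polymerase alpha-primase and maintains telomeres. AURKB is the kinase of the chromosomal passenger complex that acts at centromeres in mitosis, PFAS is an enzyme of de novo purine synthesis, and TMEM107 is a membrane protein of the ciliary transition zone.

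CTC1 (ENSG00000178971.17) lies at chr17:8224815-8248058 on the minus strand and has 23 coding exons. PFAS (ENSG00000178921.14, chr17:8247618-8270491) runs the opposite way from the CTC1 start, and the 2 bodies overlap by 441 bp. AURKB (ENSG00000178999.13, chr17:8204733-8210600) and TMEM107 (ENSG00000179029.15, chr17:8172457-8176399) follow downstream on the same strand as CTC1. The sequences of the 2 CTC1 stretches with the highest mean fold enrichment are given next, from the hg38 reference, on the minus strand and 5′ to 3′ in the direction of CTC1 transcription, with coding bases in capitals. The first is the whole intron between coding exons 12 and 13, at chr17:8232228-8232360. It lies within the stretch with the highest mean fold enrichment of the 2 APH lists (chr17:8231750-8232466, 4.37 and 3.39). In APH replicate 2 alone, the peak at chr17:8234286-8236562 was stronger (3.45). The second is 300 bases of the intron between coding exons 7 and 8, at chr17:8235330-8235629, from the centre of the strongest stretch of both MMS lists (chr17:8234461-8236499, 4.43 and 3.52). Neither holds a coding base. The third, chosen after the values were seen, is coding exon 7 with its flanks at chr17:8235765-8236024, an exon that both APH and both MMS lists covered whole. The fourth, also chosen after the values were seen, is the 3′ edge of coding exon 10 at chr17:8234440-8234469, where the peaks of both MMS lists ended within 6 bp of the exon's last base.
Intron in the strongest APH stretch: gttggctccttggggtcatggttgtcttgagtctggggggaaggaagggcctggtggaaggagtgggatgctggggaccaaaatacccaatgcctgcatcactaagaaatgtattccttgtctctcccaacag
Intron in the strongest MMS stretch: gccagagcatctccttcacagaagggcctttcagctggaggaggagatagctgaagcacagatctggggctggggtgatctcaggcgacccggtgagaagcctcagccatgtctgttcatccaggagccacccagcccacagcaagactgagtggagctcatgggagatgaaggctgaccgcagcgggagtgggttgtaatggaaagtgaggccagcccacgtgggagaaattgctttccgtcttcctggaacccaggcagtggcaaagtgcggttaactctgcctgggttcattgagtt
Coding exon 7 and flanks: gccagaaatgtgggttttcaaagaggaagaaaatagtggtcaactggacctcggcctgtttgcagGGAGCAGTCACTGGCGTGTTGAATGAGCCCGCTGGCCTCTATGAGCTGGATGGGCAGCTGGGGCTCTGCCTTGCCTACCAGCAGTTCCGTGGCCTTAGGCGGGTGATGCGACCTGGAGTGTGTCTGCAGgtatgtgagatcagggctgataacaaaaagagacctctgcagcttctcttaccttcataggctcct
Edge of coding exon 10: TTCTGCCCAGCCCAGgtaagggggacccta

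The window held many peaks for its size in every list. It had 18 and 15 peaks in the untreated lists, 16 and 11 with APH, 54 and 51 with HU, and 7 and 10 with MMS. An even spread of each list over the assembled genome would have placed at most 6.87 peaks there. The observed number was 43.9 and 40.4 times that of an even spread in the untreated lists. APH lists had 10.6 and 9.14 times, HU lists 7.87 and 8.49 times, and MMS lists 6.68 and 11.1 times as many. The share of a list's peaks in the window was thus largest without treatment, at 0.377% and 0.347%, and lay between 0.0574% and 0.0955% in the 6 treated lists.

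**Figure D1:**
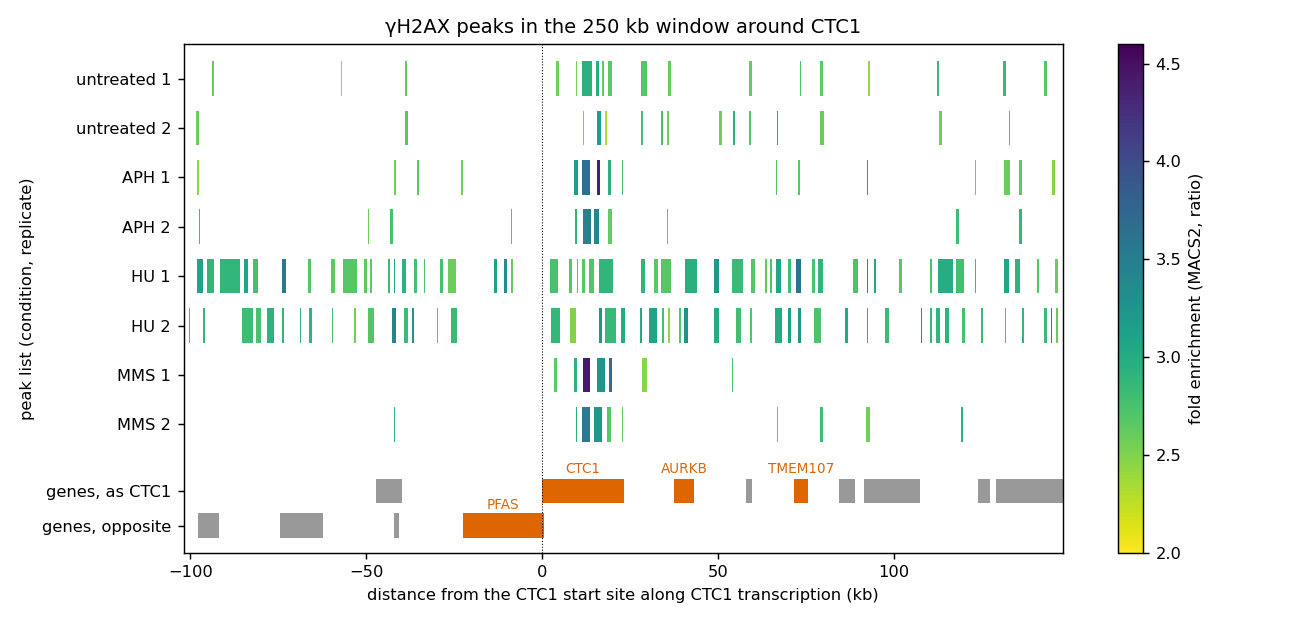
Peaks of the 8 lists along the window, by distance from the CTC1 start in the direction of CTC1 transcription (kb), coloured by fold enrichment (ratio), with protein-coding genes below (the 4 named genes in orange). The darkest bars of the APH and MMS lists sit inside CTC1, while HU peaks are spread along the window, with none over PFAS in HU replicate 2.

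The question for HU, which had no part in the choice of the locus, was whether the window took part in the peaks that HU added across the genome. HU peaks made up 0.0702% ± 0.00377 (SD, n = 2) of their lists in the window, against 0.362% ± 0.0212 (SD, n = 2) in untreated cells, a difference of -0.291 percentage points. HU peaks covered 61.7 kb ± 17.3 (SD, n = 2) of the window, against 12.6 kb ± 3.18 (SD, n = 2), a difference of 49.1 kb. Peaks of the whole list covered 3.08% and 2.54% of the assembled genome under HU, and 0.137% and 0.116% without treatment. The covered part of the window was 9.60 and 7.80 times that share under HU, and 43.5 and 35.8 times without treatment. Relative to each list's genome cover, the window's cover was thus lower under HU. The replicate values of HU and untreated cells did not overlap in the share of peaks or in the kb covered. The two-sided exact permutation test gave p = 0.333 for both, the smallest value that 2 against 2 lists allow, so neither difference could pass a threshold of 0.05. Each difference changed sign with 1 choice of peaks. With peaks of a q-value (a p-value corrected for the many positions tested) of at most 0.05, the share was 0% without treatment and 0.0849% under HU, because no untreated peak of the window reached that level. With the same number of peaks of the lowest p-value from each list, HU covered 5.03 kb and untreated 12.2 kb.

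Tiles of 250 kb over the genome, 12102 in all, gave the background for the counts of the window. At least as many peaks in both replicates as in the poorer replicate of the window were found in 0.165% of tiles for untreated cells, 0.430% for APH, 0.859% for HU and 0.347% for MMS. In the 8 tiles nearest to the window, 4 on each side, the untreated lists had 0 to 6 and 0 to 2 peaks. The window had more peaks than each of these 8 neighbours in 7 of 8 lists. The exception was MMS replicate 1, with 7 peaks in the window and 9 in 1 neighbour.

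**Figure D2:**
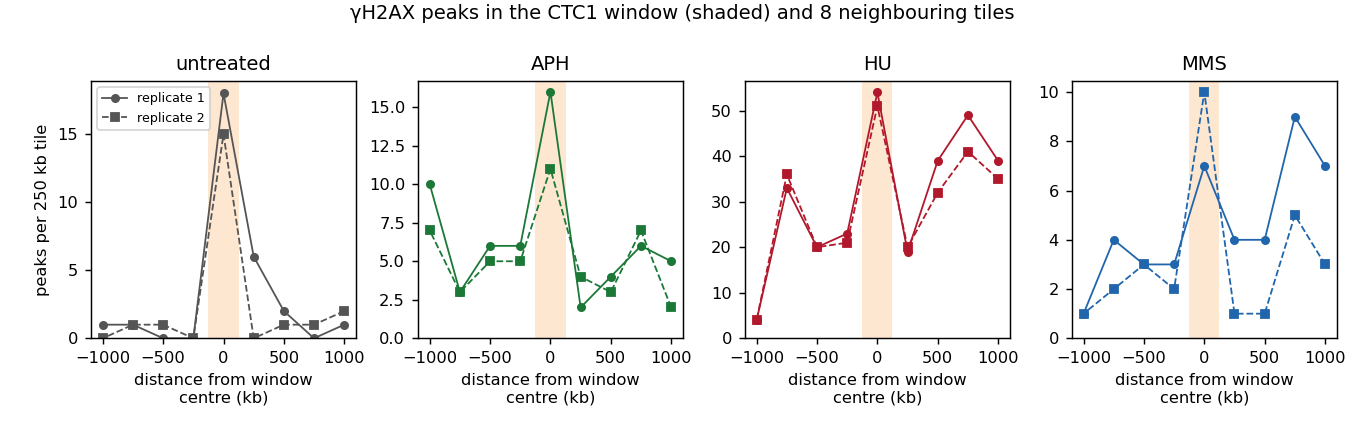
Peaks per tile of 250 kb (vertical axis, a separate scale for each condition) in the window, shaded, and in the 8 nearest tiles, by distance from the window's centre (kb), for replicate 1 (solid) and replicate 2 (dashed). The untreated lists reach 18 and 15 peaks in the window and at most 6 in a neighbour, and MMS replicate 1 is the 1 list with a higher neighbour.

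Within the window, CTC1 took a larger part of the peaks than of the length in every list, though by little under HU. For APH and MMS, the choice of the locus fixed this in part. The gene is 9.30% of the window and held 33.3% and 20% of its peaks without treatment, 31.3% and 36.4% with APH, 11.1% and 11.8% with HU, and 71.4% and 50% with MMS. In numbers, CTC1 had 6 and 3 peaks without treatment, 5 and 4 with APH, 6 and 6 with HU, and 5 and 5 with MMS. These counts from the full lists, which differ in length, spanned 3 to 6. The same number of peaks (4327) was also taken from each list, those with the lowest p-values. CTC1 then had 5 and 3 peaks without treatment, 5 and 3 with APH, 4 and 3 with MMS, and 0 and 0 with HU. With a fold enrichment of at least 3 it had 0 and 1, 3 and 2, 3 and 2, and 0 and 2, in the same order. The order by fold enrichment differs from that by p-value, and by fold enrichment the strongest CTC1 peak of HU replicate 2 ranked 3016. Because many CTC1 peaks lay over its coding exons (values below), a limit holds for all CTC1 values here. Reads from the chromosomal locus and reads from spliced CTC1 sequence in a library, such as cDNA or a plasmid, cannot be told apart in peak lists, and which of them gave these peaks was not tested. Peaks covered 27.4% and 8.91% of the CTC1 body without treatment, 22.7% and 22.8% with APH, 41.4% and 38.8% with HU, and 28.7% and 25.8% with MMS.

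The strongest peak of CTC1 had a fold enrichment of 2.99 and 3.15 without treatment, 4.37 and 3.45 with APH, 2.90 and 3.24 with HU, and 4.43 and 3.52 with MMS. The APH and MMS values are those by which the locus was chosen. Among all peaks of its own list, ordered by fold enrichment, that peak ranked 1 and 60 with APH, 1 and 22 with MMS, 273 and 64 without treatment, and 15203 and 3016 with HU. It was the strongest peak of the window in the 6 lists without HU. Under HU, 17 peaks outside CTC1 in replicate 1 and 4 in replicate 2 were stronger, the first of them in TMEM107 (3.61) and in ALOXE3 (3.42), a lipoxygenase gene at the edge of the window. With a q-value of at most 0.05, CTC1 held every remaining peak of the window in the APH lists, 3 and 2, and in MMS replicate 1, 2. No peak of the window passed this limit in MMS replicate 2 or in either untreated list. Under HU, 50 and 38 peaks of the window passed it, 6 and 4 of them in CTC1.

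Merging the CTC1 peaks of the 4 APH and MMS lists gave 6 sites. At 4 of these all 4 lists had a peak, and these 4 are described here in the order of transcription. The first lay 9.2 to 10.3 kb from the start (chr17:8237765-8238856). Its fold enrichment was 2.52 in untreated replicate 1, 3.15 and 2.90 with APH, 2.69 and 2.49 with HU, and 2.92 and 2.94 with MMS. Untreated replicate 2 had no peak there.

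The next site, 11.5 to 13.8 kb from the start (chr17:8234286-8236585), had values of 2.94 and 2.50 in untreated cells, 3.68 and 3.45 under APH, 2.71 in HU replicate 1, and 4.43 and 3.52 under MMS. HU replicate 2 had no peak there, and the 4 APH and MMS values were all above the untreated ones. The site 14.9 to 18.0 kb from the start (chr17:8230087-8233164) had 2.99 and 3.15 without treatment, 4.37 and 3.39 with APH, 2.90 and 3.24 with HU, and 3.24 and 3.20 with MMS. The last, 18.4 to 19.8 kb from the start (chr17:8228260-8229677), had 2.67 and 2.32 without treatment, 2.94 and 2.62 with APH, 2.90 and 2.85 with HU, and 3.68 and 2.68 with MMS. At this site the ranges of treated and untreated lists overlapped. A peak was present in all 8 lists at the last 2 of these sites, and in 7 of 8 at the others. In untreated replicate 2 and both HU lists, 1 peak reached into both of the last 2 sites and is counted at each. That peak of untreated replicate 2 covered only 47 of the 1418 bp of the last site. The median fold enrichment of a whole list was between 2.55 and 2.77, so the untreated values at the first and last site were near or below the middle of their own lists.

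**Figure D3:**
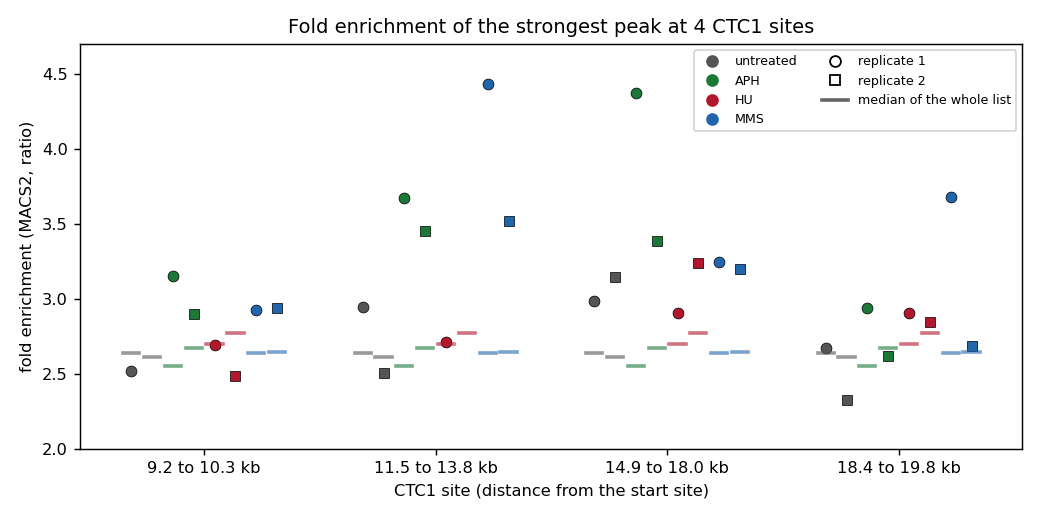
Fold enrichment (ratio, axis from 2) of the strongest peak at each of the 4 CTC1 sites, by condition and replicate (circles and squares), with the median of the whole list as a short line. Values at the 2 middle sites reach 4.43 and 4.37, and points are missing where a list had no peak.

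The extent of the peaks in CTC1 repeated best between the APH replicates. The bases of CTC1 in peaks of 1 APH replicate were to 84.0% and 83.7% also in peaks of the other. The corresponding shares were 64.0% and 71.2% for MMS, 58.4% and 62.4% for HU, and 15.9% and 48.8% for untreated cells. Of the bases in an APH list, 78.9% to 84.0% were in peaks of an MMS list over the 4 pairs, and 23.1% to 46.0% in peaks of an HU list, which covered more of the gene. In peaks of untreated replicate 1 lay 78.8% and 87.8% of the bases of the APH lists, a share as high as for MMS, and in peaks of untreated replicate 2 lay 21.9% and 19.4%. Stretches covered in both replicates numbered 8 in the window without treatment, 6 with APH, 38 with HU and 4 with MMS. In CTC1 lay 2, 4, 5 and 4 of them.

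Most APH and MMS peaks in CTC1 overlapped coding exons. The exceptions were the other 2 of the 6 sites, which hold no coding base. At chr17:8243954-8244649, in the longest intron, MMS replicate 1 had a peak with a fold enrichment of 2.66, and at chr17:8225071-8225448, past the last coding exon, APH replicate 1 had 2.76 and MMS replicate 2 had 2.61. The 4 sites together measured 7888 bp, 33.9% of the 23.2-kb body, and contained bases of 19 of the 23 coding exons and 86.4% of the coding bases. Peaks covered 62.1% and 25.3% of the coding bases without treatment, 64.5% and 65.0% with APH, 52.1% and 33.1% with HU, and 72.5% and 67.7% with MMS. The introns were covered to 25.4% and 7.08% without treatment, 16.3% and 18.0% with APH, 45.8% and 34.8% with HU, and 24.8% and 19.7% with MMS. The untranslated regions (UTRs) of the gene, 3388 bp, were covered to 0% in both untreated lists, 8.09% and 0% with APH, 9.12% and 63.7% with HU, and 0% and 9.53% with MMS. Coding cover was above intron cover in all lists except HU replicate 2.

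Coding minus intron cover averaged 27.5 percentage points ± 13.1 (SD, n = 2) without treatment, 47.6 ± 0.860 (SD, n = 2) with APH, 2.30 ± 5.64 (SD, n = 2) with HU and 47.9 ± 0.128 (SD, n = 2) with MMS. This measure was added after the peaks of CTC1 had been seen. HU and untreated cells differed by -25.2 percentage points in it, and the exact two-sided permutation test gave p = 0.333, the smallest possible. Between coding exons 3 and 23, a span of 10.4 kb, coding minus intron cover averaged 13.9 ± 5.09 (SD, n = 2) without treatment, 31.7 ± 2.49 (SD, n = 2) with APH, -1.91 ± 9.11 (SD, n = 2) with HU and 29.2 ± 4.72 (SD, n = 2) with MMS. The 2 longest introns, 4855 and 4355 bp, lie upstream of this span and were together covered to 8.14% and 0% without treatment, 2.36% and 2.29% with APH, 32.4% and 41.7% with HU, and 10.02% and 0% with MMS.

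**Figure D4:**
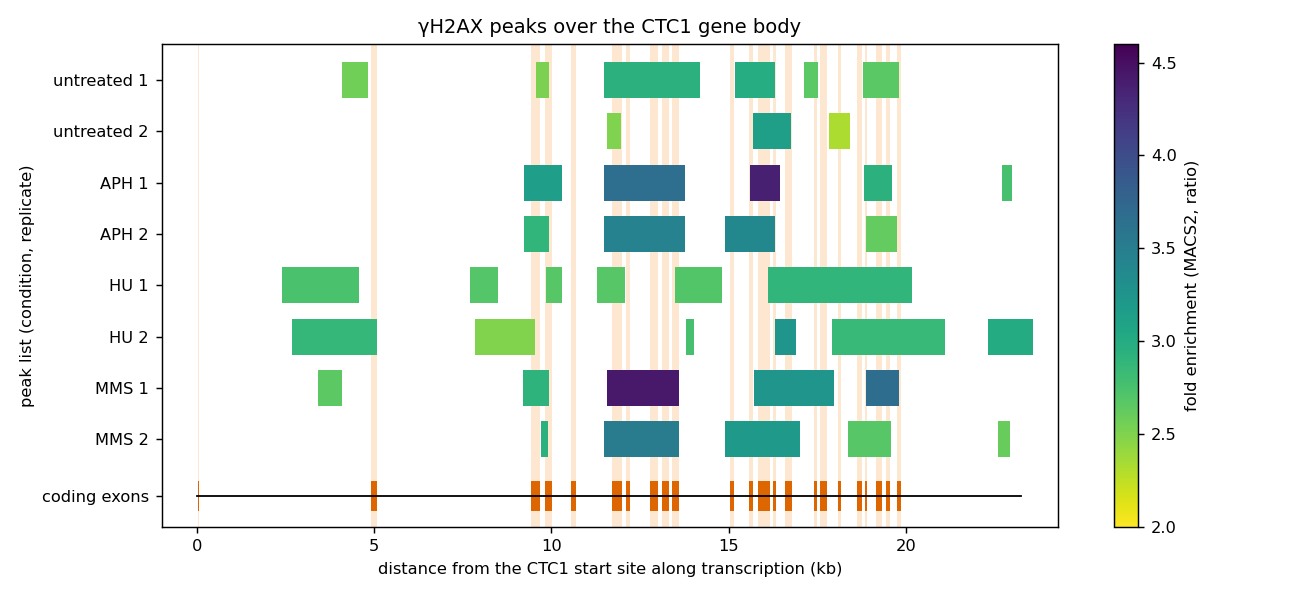
Peaks of the 8 lists over the CTC1 body, by distance from the start (kb), coloured by fold enrichment (ratio), with coding exons as orange boxes and shaded bands. APH and MMS peaks repeat over the exon-rich part from about 9.2 to 19.8 kb, while HU peaks also lie in the long upstream introns.

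**Figure D5:**
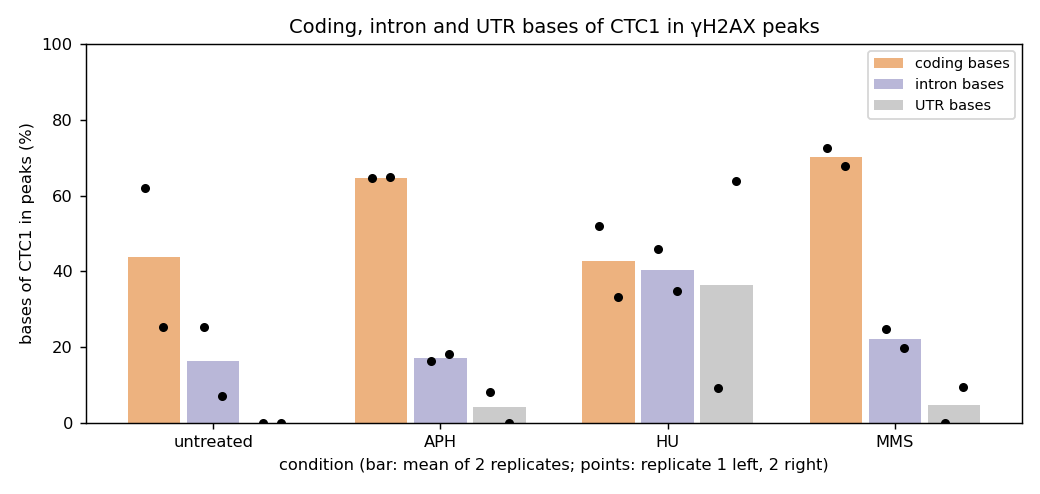
Percent of the coding, intron and UTR bases of CTC1 in peaks, as points for the 2 replicates and bars for their mean. Coding cover is 64.5% to 72.5% in the APH and MMS lists against 16.3% to 24.8% for introns, and the HU bars are of similar height.

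Exon by exon, 11 of the 23 coding exons were touched by a peak in all 4 APH and MMS lists, and 7 of them were covered whole in all 4. Coding exons 1, 2, 5 and 18 were touched in none of these lists. Coding exons 6, 13 and 14 were touched in all 6 lists without HU. Under HU, 8 coding exons were touched in both lists and 7 in neither, among them exons 7, 8 and 9, which all 4 APH and MMS lists covered whole. The peaks of the 2 MMS lists at the strongest site ended at 8234453 and 8234461, which is 2 and 6 bp from the last base of coding exon 10. The APH peaks at this site ran 160 and 169 bp past it. The 2 MMS ends were the closest to a coding-exon edge among all peak ends at the 6 sites. The other ends of the same 2 peaks lay 157 and 243 bp from one, and the remaining MMS ends at the 4 sites 12 to 239 bp. An end 9 bp from a coding-exon edge was found in APH replicate 1 and in HU replicate 2. The lists hold no reads, so whether single reads joined neighbouring exons was not tested.

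Among the 7508 genes with at least 10 coding exons, CTC1 ranked 1 with APH, 1 with MMS, 2 without treatment and 4264 with HU by the lower replicate's coding minus intron cover. That measure was added after the CTC1 peaks had been seen. The gene was chosen by its APH and MMS peaks, so its rank and coding cover under these drugs are a description with no test. At least 40% of the coding bases were covered in both MMS lists for CTC1 alone, 0.0133% of these genes. The same held for 9 genes under APH (0.120%), CTC1 among them. In the other 8 genes, such as KANK1 (95.0% and 67.0% of coding bases) and DIP2A (90.6% and 83.9%), introns were covered to 33.8% or more in each list. In untreated cells 6 genes (0.0799%) and under HU 99 genes (1.32%) met this limit, and CTC1 was in neither group. Over all 7508 genes together, peaks covered between 0.169% and 4.68% of coding and between 0.144% and 3.03% of intron bases, with coding above intron in each list.

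Base composition and repeats also differed between the 4 sites and the rest of CTC1. The 4 sites had a GC content of 52.5% and the rest of the body 47.0%, coding bases 56.7% and introns 46.9%. Stretches similar to Alu elements, the most common short repeat of the human genome, made up 2.10% of the 4 sites and 20.0% of the rest. Of the CTC1 bases in APH peaks none lay in such stretches, against 6.65% and 0% in untreated cells, 6.02% and 1.85% under MMS, and 12.0% and 10.6% under HU. The part of base composition and repeats in the position of the peaks was not tested. Introns outside the Alu-like stretches were covered to 20.1% and 22.2% with APH, 27.5% and 23.5% with MMS, 28.1% and 8.73% without treatment, and 47.7% and 37.0% with HU.

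Across the genome, 2.93% of protein-coding genes had a peak in both untreated lists, 13.3% in both APH lists, 46.7% in both HU lists and 12.9% in both MMS lists. Of the 4 genes, CTC1 was the 1 called without treatment, under APH and under MMS, calls that the choice of the locus fixed in part. CTC1, AURKB and TMEM107 were called under HU, 3 of 4 where the background was 46.7%. Among the 2281 genes with 0.8 to 1.25 times the length of CTC1, the shares were 2.37%, 10.4%, 55.5% and 8.59% in the same order. A peak in both HU and neither untreated list was found for 7086 genes (35.5%), and of the 4 genes for AURKB. The reverse was found for 32 genes (0.160%) and none of the 4. A peak in both APH and neither untreated list (6.85% of genes), in both MMS and neither untreated list (7.69%), or the reverse of these (0.270% and 0.466%) was found for none of the 4. The call of AURKB was lost with the same number of peaks of the lowest p-value from each list, which left 386 genes. It was also lost with a fold enrichment of at least 3, which left 1995 genes and called TMEM107 instead. With gene bodies widened by 2 kb on each side, PFAS was called in place of AURKB.

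AURKB had no peak in the untreated, APH and MMS lists, and 1 and 2 peaks under HU. HU peaks covered 47.4% and 24.8% of its 5.87-kb body. The stretch in both HU lists was chr17:8206695-8207511, within the gene, with a fold enrichment of 2.95 and 3.29. TMEM107 had 1 peak in untreated replicate 1, 1 in APH replicate 1, 1 in each HU list and none under MMS. Its HU peaks had a fold enrichment of 3.61 and 3.23 and shared chr17:8174557-8175337. PFAS, although nearly as long as CTC1 (22.9 kb), had no peak in untreated and MMS lists, 1 in APH replicate 2 (2.70), 3 in HU replicate 1 (up to 3.33) and none in HU replicate 2, so that no condition had a replicated PFAS peak.

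Peaks also repeated in other genes of the window. Under HU these were ALOXE3, the clock gene PER1, BORCS6 (a subunit of a complex that positions lysosomes), SLC25A35 and RANGRF, ARHGEF15 and ODF4, besides unnamed genes. In untreated cells the gene stretches outside CTC1 were in BORCS6 only, with an unnamed gene on the other strand, at a fold enrichment of 2.62 and 2.70. Under APH they were in ALOXE3 (2.66 and 2.88) and in ODF4 (2.44 and 2.81). Under MMS every replicated stretch of the window was in CTC1. In the stretch from 250 bp before to 50 bp after the start site of each of the 14 protein-coding genes of the window, the 8 lists had 1 peak, which ended 0.067 kb before the start of ODF4 in HU replicate 1. No peak met this stretch at CTC1, AURKB, PFAS or TMEM107 in any list. The lists covered between 0.116% and 3.08% of the assembled genome, and the share over all start sites was not computed. Whether these starts differ from others was therefore not tested.

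CTC1 stood out by having peaks in every list, a property that overlaps with the way it was chosen and is given as a description. A peak in all 8 lists was found in 242 genes (1.21%), and in 10 of the genes of similar length (0.438%). At least 3 peaks in each of the 8 lists were found in 25 genes (0.125%). CTC1 was the second shortest of these after C17orf97 (20.7 kb), and most of the others were longer than 100 kb. By the summed difference of the 8 counts per list, the genes most like CTC1 outside the window were C17orf97 (a difference of 11 peaks), RNF220 (12) and PTK2B (12). C17orf97 had 5 and 7 peaks without treatment, 3 and 5 with APH, 7 and 7 with HU, and 5 and 4 with MMS. Coding cover under APH and MMS was at most 3.87% in these 3 genes, against 64.5% or more in CTC1. RNF220 and PTK2B are far longer, at 246.5 and 147.9 kb.

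The partners of the 4 genes were listed by pathway, and all 37 genes were found in the annotation. The list of CST and polymerase alpha-primase had 7 genes, of which 1 had a peak in both untreated lists (2.93% of all genes did), 2 under APH (13.3%), 6 under HU (46.7%) and 5 under MMS (12.9%). CTC1 is counted in each of these numbers, and its calls under APH and MMS were fixed in part by the choice of the locus. STN1 had no peak without treatment, 1 and 1 with APH, 9 and 6 with HU, and 2 and 1 with MMS. TEN1 had none without treatment, 2 and 0 with APH, 6 and 4 with HU, and 1 and 1 with MMS. POLA1, the catalytic subunit of polymerase alpha, had none in any list. CTC1 was thus the 1 gene of its complex with replicated peaks in untreated cells.

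Of all genes, 2.93% had a peak in both untreated lists, 13.3% in both APH, 46.7% in both HU and 12.9% in both MMS lists. In pathway lists this short, counts of 0 or 1 outside HU are not set apart from these shares. Of the 6 genes of shelterin, which caps telomeres, 3 had a peak in both HU lists and 0 in both lists of any other condition. All 5 genes of the chromosomal passenger complex and AURKA had replicated HU peaks, and 0 had them elsewhere. In de novo purine synthesis, replicated peaks were found in 2 of 6 genes under HU (GART and ADSL) and in ADSL also under APH and MMS. In the MKS module of the ciliary transition zone, 8 of 13 genes had them with HU, 1 with APH, 1 with MMS and 0 without treatment. Over the 5 lists, 24 of 37 genes had replicated HU peaks, where the share of all genes was 46.7%, and 18 of 37 had them in HU and no peak in untreated cells, where it was 35.5%. The corresponding counts were 3 of 37 for APH, where the share of all genes was 6.85%, and 4 of 37 for MMS, where it was 7.69%. The reverse was found for 0 of 37 genes under APH, HU and MMS, where the shares of all genes were 0.270%, 0.160% and 0.466%.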

How the data were processed

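γH2AX ChIP-seq peaks from 8 libraries, 2 each of untreated, APH, HU and MMS cells, were analysed. Per the labels and the methods, the authors aligned reads to hg38 with Bowtie2, filtered them with SAMtools, and ran MACS2 for broad peaks, separately for each replicate. The deposited lists give each peak's position, a score, the fold enrichment as a ratio, and p-values and q-values as −log10. The lowest −log10 p-value of a list was 3.00 to 3.01. The score was not used. Replicates are those of the labels, and the study describes them as independent biological replicates, treated and immunoprecipitated separately. A permutation p-value of 2 against 2 lists could not fall below 0.333, however small the spread between replicates.

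Peaks on chromosomes 1 to 22 and X were kept (2 to 22 per list were left out) and counted where they overlapped a feature of GENCODE release 44 by at least 1 bp. Exons are those of the canonical transcript. Even spread means a list's peaks times the window's share of the 2911 Mb of assembled bases. Replicate values of 2 conditions were compared by an exact permutation test (SciPy 1.17.1), and the counting was tested on simulated lists. Alu-like stretches were found with BLAST 2.17.0 (at least 100 bp, E-value 1e-05), starting from the RN7SL1 transcript.

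Named genes were the 4 listed genes, other genes of the window with a replicated peak and those at its ends, 5 pathway lists, and the 3 genes with the most similar counts per list. The members and lists were chosen with earlier results of these data known. Alternatives changed the peaks used, the window, the gene bodies and the replicates. The peak lists hold no read numbers, so depth is unknown and the replicate spread is the only measure of precision.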

Additional observations from a re-analysis of the deposited data

How the results depend on the processing

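With 2 lists per condition, no exact permutation test could pass the threshold, so the alternatives show only direction and size. The share of a list in the window was lower under HU than in untreated cells in 12 alternatives, and reversed to 0.0849 percentage points higher with a q-value of at most 0.05, where untreated cells had no peak. It moved from -0.291 to -0.899 with peaks shared by both replicates and to -0.0946 over the 4 gene bodies, and with a fold enrichment of at least 3, where untreated replicate 1 had 0 peaks in the window, it was -0.410 (exact permutation p = 1). The kb covered were higher under HU in 11 alternatives and reversed to -7.20 kb with equal numbers of the peaks of lowest p-value. They moved from 49.1 kb to 32.0 kb with the stronger 50% of each list, 9.36 kb over the 4 gene bodies, and 11.7 kb where the fold enrichment had to reach 3. Without 1 replicate in turn the differences ranged from -0.306 to -0.276 percentage points and from 36.8 to 61.3 kb. These could not change sign, because the replicate values of HU and untreated cells did not overlap. The gene count of 7086 became 1995 with a fold enrichment of at least 3, 386 with equal numbers of peaks, and 7872 to 8571 without 1 replicate. The replicate numbers mark no shared culture in the labels. With the replicate number as a block, the differences were by construction the same, -0.291 percentage points and 49.1 kb. Each had an exact sign-flip permutation p = 0.5, the smallest possible with 2 pairs. The gene count does not use the block and stayed at 7086. The alternatives without 1 replicate and with the block are among the 12 and 11 given above.

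Coding minus intron cover of CTC1 and all its alternatives were chosen after seeing the data. With the stronger 50% of each list it was 44.1 under APH, 12.9 under HU and 50.01 under MMS. With exons of all transcripts it was 55.7 under APH and 61.4 under MMS, and with introns outside Alu-like stretches 43.6 and 44.6. Between coding exons 3 and 23 it was 31.7 under APH, 29.2 under MMS and 13.9 without treatment, and reversed to -1.91 under HU. Without 1 replicate it ranged from 18.2 (without untreated replicate 1) to 36.7 in untreated cells, from 47.0 to 48.2 under APH, from -1.69 (without HU replicate 1) to 6.29 under HU, and from 47.8 to 48.0 under MMS. Each of these is the value of the remaining replicate. In untreated cells coding minus intron cover was 23.2 with the stronger 50% of each list and 34.1 with exons of all transcripts. With introns outside Alu-like stretches it was 25.3. These 3 values lay within 1 SD, which was wide (13.1). The causes were not tested.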
